A study of Homo sapiens with 24 samples.

Results

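The balance of epithelial and mesenchymal gene expression was examined with 10 genes, of 60658 in the deposited tables, each chosen by its symbol. The epithelial side held 3 genes: CDH1 (E-cadherin) and the keratins KRT8 and KRT18. The mesenchymal side held 7 genes: CDH2 (N-cadherin), VIM (vimentin), FN1 (fibronectin), COL1A1 (a chain of type I collagen) and the transcription factors SNAI2, TWIST1 and ZEB1. Each symbol matched 1 row of the tables. The genes were chosen with earlier results of these data known.

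The libraries came from a study of off-target effects on messenger RNA when the circular RNA ciRS-7, also called CDR1as, is depleted in cells labelled SH-SY5Y, a human neuroblastoma line. There were 4 setups, and each had a knockdown arm (KD) against ciRS-7 and an arm with its own non-targeting control (NTC), with 3 libraries per arm. In the agoshRNA setup, vectors expressed the AgoshRNA hairpin. For gRNA and pre-gRNA, a CasRx-GFP vector was transfected together with plasmids for a mature or a precursor guide, and syn-gRNA used a guide made by chemical synthesis; CasRx is an RNA-guided nuclease that cuts RNA. RNA was taken 48 h after transfection in every group, and how the synthetic guide and its nuclease were delivered is not described in the labels. Libraries are named by setup, arm and the letter A, B or C of their column, because nothing links the letters to the numbered replicates of the labels. The labels do not say whether the 3 libraries of a group came from separate cultures, so p-values measure the spread between these libraries only.

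Total counts per library ranged from 10994974 to 16233777. Levels are given as CPM, the count scaled to a common library total, and between genes as CPM per kilobase of annotated exon. The targeted locus, CDR1-AS, had 0 to 16 counts in a library, with KD and NTC overlapping in every setup; poly(A) selection is meant to leave out circular RNA, so this does not check the depletion. The cell label was checked against marker lists. Of 12 markers of noradrenergic neuroblastoma cells, 7 reached a mean of 1 CPM, led by the transcription factors GATA2 at 35.7 CPM and HAND1 at 21.4. The other 5, PHOX2A, DDC, STMN2, DBH and ELAVL4, had at most 5 counts in every library. Of 10 markers of mesenchymal neuroblastoma cells, which include VIM, SNAI2 and FN1, 8 reached 1 CPM, all but FOSL1 and CD44. Of 10 kidney-lineage genes known from HEK293 cells, 9 reached 1 CPM, among them HOXA9 at 98.2 and HOXA10 at 85.1 CPM, while PAX8 had at most 1 count. The noradrenergic list was thus expressed only in part, with 5 of its 12 genes at or near 0, and the kidney-lineage list in 9 of 10 genes. These values put the cell label in doubt, and the identity of the cells was not tested. The libraries are described here as labelled SH-SY5Y.

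Epithelial cells hold to their neighbours through E-cadherin and carry a cytoskeleton of keratin filaments, whereas mesenchymal cells carry vimentin filaments, use N-cadherin and secrete a matrix of fibronectin and collagen. In the epithelial-mesenchymal transition, factors such as SNAI2, TWIST1 and ZEB1 bind short E-box motifs in promoters and repress epithelial genes, CDH1 being the classical target. Many lines in culture, kidney and neuroblastoma lines included, express members of both sides.

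Upstream sequence is shown for ZEB1 and VIM, because they were the most and the least variable of the 10 genes. RefSeq promoters (GRCh38.p14) were at hand for KRT8, CDH2, VIM, FN1 and ZEB1. The sequences are the 250 bases before the start, 5′ to 3′ on the plus strand, at chr10:31318167-31318416 for the first of the ZEB1 starts and chr10:17227991-17228240 for VIM. Capitals mark the E-box that ZEB1 and SNAI2 are known to bind.
ZEB1: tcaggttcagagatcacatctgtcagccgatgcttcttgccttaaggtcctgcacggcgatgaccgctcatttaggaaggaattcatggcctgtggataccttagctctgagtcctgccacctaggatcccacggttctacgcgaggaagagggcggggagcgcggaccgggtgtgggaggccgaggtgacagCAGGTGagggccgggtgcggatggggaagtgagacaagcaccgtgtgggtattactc
VIM: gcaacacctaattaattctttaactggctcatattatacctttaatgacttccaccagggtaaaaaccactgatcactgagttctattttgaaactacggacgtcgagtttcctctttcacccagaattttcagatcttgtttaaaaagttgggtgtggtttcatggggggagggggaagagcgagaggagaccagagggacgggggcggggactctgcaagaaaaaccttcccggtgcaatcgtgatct
The motif searched was CAGGTG, with CACCTG as the same motif on the other strand. The ZEB1 window held 1 match, 57 bases before the start, and the VIM window held none. Of the 6 other ZEB1 starts listed, 1 had 2 matches, 242 and 85 bases before it. The windows of KRT8, CDH2 and FN1 held none either. Among 35116 RefSeq promoters, 17.5% held the motif in a window of the same length, and 2.5% held 2 or more matches. ZEB1 had more windows to search than the other genes. The matches are given as a description only. In GENCODE 29 no exon overlapped the VIM window, and exons of the antisense gene ZEB1-AS1 overlapped the ZEB1 window.

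All 10 genes were expressed in every library, so each library held transcripts of both states; bulk libraries do not show whether the same cells carried both. The filaments led each side. VIM, the mesenchymal filament, had the highest level of the 10 at 169 ± 17.8 CPM per kb (SD over 24 libraries), and KRT18 had the highest of the epithelial side at 16.5 ± 5.36. KRT8, which pairs with KRT18 in simple epithelia, was at 5.68 ± 1.69 CPM per kb. The ratio of KRT18 to KRT8 per length lay between 2.31 and 3.21 in the 24 libraries.

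Of the cadherins, CDH2 was at 17.1 ± 5.67 CPM per kb and CDH1 at 1.91 ± 0.702. CDH1 stayed below CDH2 in every library, at 0.0632 to 0.262 of the CDH2 level per length. Of the matrix genes, FN1 was at 4.2 ± 0.89 CPM per kb and COL1A1 at 1.6 ± 0.494. COL1A2, which encodes the partner chain of COL1A1 in type I collagen, had at most 3 counts in any library. Of the transcription factors, TWIST1 was at 8.19 ± 1.31 CPM per kb, SNAI2 at 6.43 ± 3.54 and ZEB1 at 3.39 ± 2.25. The order by mean level was VIM, CDH2, KRT18, TWIST1, SNAI2, KRT8, FN1, ZEB1, CDH1, COL1A1. The steps from VIM to CDH2 and from KRT18 to TWIST1 exceeded the larger SD of the genes on either side, and every other step was smaller than that. With the longest transcript as the length in place of all exons, KRT18 (25.4) passed CDH2 (19.5) KRT8 (13.7) passed both TWIST1 (10) and SNAI2 (5.65), and FN1 (7.93) passed SNAI2, so the order of these neighbours depends on the length used.

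In hg19, CDH1 lies on chromosome 16 (68771128 to 68869451, plus strand), CDH2 on 18 (25530930 to 25757410, minus), FN1 on 2 (216225163 to 216300895, minus) and COL1A1 on 17 (48260650 to 48278993, minus). ZEB1 lies on chromosome 10 (31607424 to 31818742, plus), TWIST1 on 7 (19060614 to 19157295, minus) and SNAI2 on 8 (49830163 to 49834299, minus). All counts are over the exons of a gene. The counting limits some of the levels, since the libraries were not stranded. KRT8 (hg19 chromosome 12, 53290971 to 53343738, minus strand) and KRT18 (53342655 to 53346685, plus strand) overlap by 1084 bases on opposite strands. Pseudogenes of KRT8 held 10.5% as many counts as KRT8 itself, against 1.02% for KRT18. VIM (chromosome 10, 17270258 to 17279592, plus strand) overlaps the antisense genes RP11-124N14.3 and RP11-124N14.4, which had 91860 and 85729 counts over the 24 libraries. Reads of the antisense genes and of VIM cannot be told apart.

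The 10 genes differed in how steady they were, and ZEB1 varied most. Its level in agoshRNA KD A, B and C was 5.9, 76.3 and 22.3 CPM, and in agoshRNA NTC A, B and C it was 7.75, 60.8 and 25.6. In gRNA it was 10.5, 23.6 and 51.8 CPM in KD A, B and C and 12.8, 21.6 and 58.3 in NTC. In pre-gRNA it was 25.3, 9.86 and 60.2 CPM in KD A, B and C and 20.8, 12.8 and 46.2 in NTC. The high libraries had the same letter in both arms of a setup, B in agoshRNA and C in gRNA and pre-gRNA. In syn-gRNA the range was narrower, at 35, 18.5 and 24.7 CPM in KD A, B and C and 33.8, 19.2 and 19.5 in NTC.

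The highest ZEB1 library was 12.9 times the lowest, with 81 counts in the lowest. Averaged over both arms, the letters of a setup differed by up to 3.24 on the log2 scale, whereas KD and NTC libraries of the same letter differed by at most 0.377. The SD of log2 CPM within groups exceeded that of 97.9% of all genes whose mean count reached 50. VIM was the steadiest of the 10, with a ratio of 1.44 between the highest and lowest library and an SD above that of 0.564% of genes. TWIST1 followed with a ratio of 1.9. Between these extremes the ratio was 5.69 for COL1A1, 5.05 for SNAI2, 4.39 for CDH1, 3.68 for CDH2, 2.86 for KRT18, 2.48 for FN1 and 2.42 for KRT8.

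The variation between libraries, across setups as well as letters, did not follow the 2 sides as such. KRT8 and KRT18 moved together over the 24 libraries (Pearson r of log2 CPM 0.961) and opposite to CDH2 (-0.908 and -0.849) and ZEB1 (-0.762 and -0.783). COL1A1, a mesenchymal gene, went with the keratins (0.645 with KRT18). CDH1, an epithelial gene, went with SNAI2 (0.812), whose protein is known as its repressor, and with FN1 (0.743), and it showed little relation to KRT8 (-0.177). SNAI2 and TWIST1 ran opposite to each other (-0.619). These correlations describe 24 libraries that share setups, letters and base composition, and no p-value was computed for them.

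A library's base composition moved with these levels. The mean GC content of protein-coding transcripts, weighted by counts, ran from 47.4% in agoshRNA KD B to 52.4% in pre-gRNA NTC B. Over the 24 libraries it correlated with KRT18 (r = 0.949), KRT8 (0.908) and COL1A1 (0.743), whose own transcripts have 55.7%, 56.2% and 61.1% GC. The correlation was negative for ZEB1 (-0.905) and CDH2 (-0.811), whose transcripts have 38.5% and 45% GC. It was weak for VIM (-0.031), CDH1 (-0.049), TWIST1 (0.258), FN1 (-0.276) and SNAI2 (-0.311). When a trend in gene GC content was taken out of each library, the SD of log2 CPM over the libraries fell from 0.964 to 0.456 for ZEB1, from 0.542 to 0.306 for CDH2 and from 0.493 to 0.267 for COL1A1. It rose for VIM, from 0.148 to 0.235, for TWIST1, from 0.23 to 0.334, and for FN1, from 0.32 to 0.394. SNAI2 kept an SD of 0.665 after 0.741, and CDH1 0.437 after 0.546. Whether composition arose in the cells or in the preparation of the libraries cannot be told apart here.

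Outside the set, the genes with the most similar pattern over the 24 libraries were named for each member as the 3 highest Pearson r, over genes whose mean count reached 50. For ZEB1 they were ASNSD1 (0.987), EXOC5 (0.985) and NR1D2 (0.984), with transcript GC contents of 39.3%, 35.1% and 38.5%. For KRT18 they were CAPNS1 (0.982), the overlapping locus AC107016.1 (0.977) and IDH2 (0.974), and for KRT8 they were TMEM9 (0.977), CARHSP1 (0.976) and RPS2P5 (0.971). For CDH2 they were FOXO3 (0.978), ESYT2 (0.977) and CDC14B (0.974). For CDH1 they were LYN (0.955), SLC39A14 (0.93) and ZNF619 (0.929), and for SNAI2 they were IPO9 (0.967), CEP41 (0.956) and CABYR (0.952). For FN1 the first of them were GPC4 (0.928) and RBMS2 (0.916), and for COL1A1 they were PRR36 (0.948), TBC1D17 (0.943) and KMT2B (0.942). VIM was closest to its antisense neighbours RP11-124N14.3 (0.961) and RP11-124N14.4 (0.92), with SMS (0.785) next, and TWIST1 had the loosest neighbours in TRIM3 (0.876), RAB26 (0.845) and USP35 (0.825).

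The study's own comparison was KD against NTC in each setup. None of the 10 genes passed an adjusted p of 0.05 in the Wald test of DESeq2, in any setup, and none had an unadjusted p under 0.05. These tests leave the column letter out, and fits with the letter as a block are given in the last section. In the same tests 0% of all genes passed in agoshRNA (of 17802 tested), 0% in gRNA (of 18371), 0% in pre-gRNA (of 18717) and 0% in syn-gRNA (of 18513). At an unadjusted p under 0.05, 0, 17, 2 and 55 genes passed in those 4 setups, and edgeR called 0 genes in each. A count of 0 among 10 members is the same as the background. With so few genes under an unadjusted p of 0.05, these tests could hardly have called any gene. The count of 0 therefore does not show that the members were unchanged. In bulk RNA, fewer cells of a kind and less RNA per cell cannot be told apart.

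The KD and NTC libraries did not overlap in 3 of the 40 pairings of a gene with a setup. VIM in agoshRNA was at 864, 897 and 854 CPM in KD A, B and C and at 929, 1001 and 1043 in NTC, so every KD library was lower. CDH1 in gRNA was lower in KD by the narrowest margin, with 13.73 CPM in the highest KD library and 13.74 in the lowest NTC library. KRT8 in syn-gRNA was at 30.4, 32.2 and 28.8 CPM in KD and 32.6, 32.6 and 34.5 in NTC. Over all genes the libraries did not overlap for 0.87% in agoshRNA, 2.3% in gRNA, 1.13% in pre-gRNA and 4.88% in syn-gRNA. Each setup but pre-gRNA thus had 1 such gene among the 10, and none of the 3 differences passed the test.

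COL1A1 showed the largest difference of the 40 values, in agoshRNA. It was at 27.7, 8.41 and 21.7 CPM in KD A, B and C and at 19.4, 4.87 and 14.5 in NTC A, B and C. The groups overlapped, but each KD library lay above the NTC library of its letter, by 0.504 to 0.731 on the log2 scale. Without the letter in the fit, its log2 fold change was 0.62 (SE 0.61), with a 95% interval of -0.58 to 1.82. The adjusted p was 1 in DESeq2. In the other setups COL1A1 had log2 fold changes of 0.06, -0.06 and -0.13. With the letter as a block, COL1A1 in agoshRNA had 0.65 (SE 0.221), with an unadjusted p of 0.00329 in DESeq2. The block in edgeR gave an unadjusted p of 0.000761. Neither passed after adjustment over all genes.

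CDH1 had log2 fold changes of -0.37 (95% interval -1.10 to 0.36) in agoshRNA, -0.21 (-0.82 to 0.41) in gRNA, 0.21 (-0.79 to 1.2) in pre-gRNA and 0.03 (-0.42 to 0.48) in syn-gRNA, with adjusted p-values of 0.9999 in pre-gRNA and 1 in the other setups in DESeq2. The keratins KRT8 and KRT18 had 0.19 and 0.14 in agoshRNA, 0.29 and 0.32 in gRNA, -0.19 and -0.15 in pre-gRNA, and -0.13 in syn-gRNA for both. The mesenchymal cadherin CDH2 had -0.11, -0.13, 0.22 and 0.06 in the same order. The signs of the keratins and of CDH2 were opposite in every setup, and none of these values passed the test.

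The transcription factors had log2 fold changes between -0.33 and 0.27. SNAI2 had -0.21, -0.33, 0.27 and 0.06 in agoshRNA, gRNA, pre-gRNA and syn-gRNA, and ZEB1 had 0.18, -0.07, 0.22 and 0.11. TWIST1 lay within 0.07 of 0 in every setup. VIM had -0.16, 0.02, 0.04 and 0.06, and FN1 had -0.25, -0.11, 0.08 and 0.03. In the authors' deposited table the adjusted p was 1 for each of the 10 genes in each setup, and the log2 fold change of COL1A1 in agoshRNA was 0.64.

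The precision differed between setups. For ZEB1 the 95% interval ran from -1.77 to 2.13 in agoshRNA and from -0.35 to 0.57 in syn-gRNA. For VIM it ran from -0.75 to 0.44 in agoshRNA and from -0.22 to 0.33 in syn-gRNA. In syn-gRNA the intervals of all 10 genes lay between -0.53 and 0.57, narrower than in any other setup for each gene in these fits, which leave the column letter out. With the letter as a block the order changed: the SE in pre-gRNA was then below that in syn-gRNA for CDH1 (0.198 against 0.234), SNAI2 (0.158 against 0.22), COL1A1, KRT8 and KRT18, and the SE of ZEB1 in agoshRNA fell from 0.993 to 0.207. A likelihood ratio test in DESeq2 of whether the KD effect differed between the 4 setups gave unadjusted p-values of 0.572 to 0.995 and adjusted p-values of 1, and 0% of the 20172 genes tested passed it. At an unadjusted p under 0.05, 17 genes passed, and edgeR called 0. This test also left the letter out, and with so few genes under 0.05 it could hardly have called any gene. Its DESeq2 form with the letter as a block gave smaller unadjusted p-values, 0.00902 for COL1A1, 0.0622 for SNAI2 and 0.0933 for CDH1. The other members had 0.236 to 0.918, and no member passed after adjustment.

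**Figure D1:**
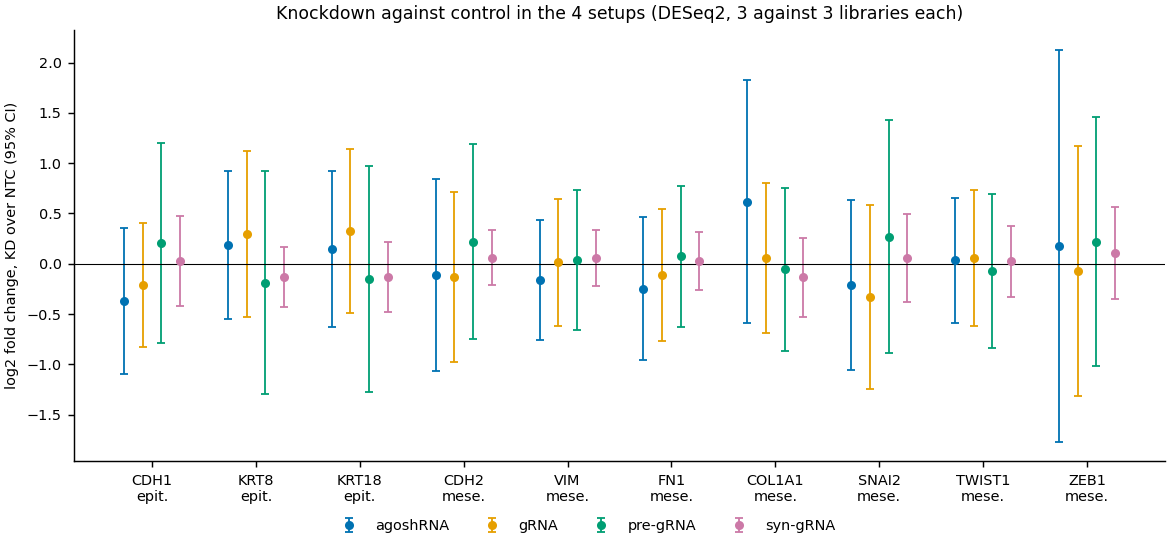
Log2 fold change of KD over NTC for the 10 genes in the 4 setups, as points with 95% intervals from DESeq2 (3 against 3 libraries each). In these fits without the letter block, every interval covers 0 and the syn-gRNA interval is the narrowest for each of the 10 genes.

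The balance of the 2 sides was summarised per library as the mean log2 CPM of the 3 epithelial genes minus that of the 7 mesenchymal genes, with 0.5 CPM added to each. It ran from -1.30 in gRNA NTC C to 0.05 in gRNA KD A. In agoshRNA it was -0.498 ± 0.556 (SD, n = 3) in KD and -0.494 ± 0.385 in NTC, and in gRNA it was -0.684 ± 0.682 in KD and -0.868 ± 0.384 in NTC. The pre-gRNA libraries had -0.651 ± 0.628 in KD and -0.576 ± 0.544 in NTC. The syn-gRNA libraries had the lowest means, -1.03 ± 0.204 in KD and -0.923 ± 0.154 in NTC. In each setup the difference between KD and NTC was smaller than the SD of either arm.

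In syn-gRNA the balance was highest in KD B (-0.8555) and in NTC C (-0.8296), which have different letters. In each other setup the highest library had the same letter in both arms. The balance was highest in agoshRNA KD A and NTC A (-0.102 and -0.0918), in gRNA KD A and NTC A (0.0524 and -0.576) and in pre-gRNA KD B and NTC B (0.0341 and -0.0383). It followed the GC content of the library (r = 0.947 over 24 libraries, a description). With the trend in GC content removed, the span from the lowest to the highest library fell from 1.36 to 0.708, and the group means lay between -0.874 in gRNA NTC and -0.534 in agoshRNA NTC.

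Setups were also compared with each other within each arm, in 1 DESeq2 model of the 24 libraries. Setup, delivery and any batch cannot be told apart in these comparisons, and those with a common setup share its libraries. No member passed an adjusted p of 0.05 in any of the 12. Between agoshRNA and gRNA 0.0446% of genes passed in the KD arm and 0.0496% in the NTC arm, and between agoshRNA and pre-gRNA 0.0446% and 0.0347%. Between gRNA and pre-gRNA 0% passed in either arm, where 47 and 104 genes had an unadjusted p under 0.05 and edgeR called 0. Against syn-gRNA more of the transcriptome differed: 3.14% of genes in the KD arm and 1.84% in the NTC arm for agoshRNA, 1.58% and 1.32% for gRNA, and 2.52% and 3.25% for pre-gRNA. Unadjusted p-values under 0.05 were found for 0 to 2 members in a comparison with syn-gRNA, beside 11.8% to 17.8% of all genes. Where single libraries are placed against syn-gRNA below, the share of all genes that separate likewise was not counted. Such placements are descriptions only.

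CDH1 and SNAI2 were low in syn-gRNA. CDH1 was at 7.08, 7.26 and 7.91 CPM in syn-gRNA KD A, B and C and at 7.58, 7.94 and 6.18 in NTC. It was at 13.9, 9.49 and 9.68 CPM in agoshRNA KD and 19.5, 9.86 and 14.6 in NTC, and at 10.7, 13.1 and 13.7 in gRNA KD and 17, 15.6 and 13.7 in NTC. In pre-gRNA it was at 18.1, 7.58 and 16.1 CPM in KD and 13.4, 4.45 and 18.2 in NTC. Of the 18 libraries of the other setups, 16 lay above the highest syn-gRNA library, and the remaining ones were pre-gRNA KD B and NTC B. In the NTC arm the log2 difference from syn-gRNA was 0.98 (95% interval 0.34 to 1.62) for agoshRNA, with an adjusted p of 0.0913 in DESeq2. It was 0.95 (0.31 to 1.59) for gRNA, with an adjusted p of 0.122, and 0.63 (-0.01 to 1.27) for pre-gRNA, with an adjusted p of 0.292. In the KD arm it was 0.57, 0.70 and 0.79, with adjusted p-values of 0.423, 0.321 and 0.204 in DESeq2.

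SNAI2 had the largest differences of the 10 genes from syn-gRNA for gRNA and pre-gRNA, though not for agoshRNA. It was at 10, 7.02 and 9.1 CPM in syn-gRNA KD A, B and C and at 10, 7.86 and 7.17 in NTC. In gRNA it was at 12.1, 11.5 and 30.8 CPM in KD and 25, 15.6 and 31.4 in NTC, so that every gRNA library lay above every syn-gRNA library. In agoshRNA it was at 13.7, 16 and 8.13 CPM in KD and 18.4, 15 and 11.6 in NTC. In pre-gRNA the letters differed widely, with 25.2, 7.18 and 35.4 CPM in KD and 20.6, 7.01 and 27.6 in NTC. Of the 18 other libraries 15 lay above the highest syn-gRNA library. The log2 difference of gRNA from syn-gRNA was 1.38 (95% interval 0.48 to 2.28) in the NTC arm and 0.97 (0.07 to 1.88) in the KD arm, with adjusted p-values of 0.103 and 0.323 in DESeq2. For pre-gRNA it was 1.04 and 1.24, with adjusted p-values of 0.195 and 0.132, and for agoshRNA it was 0.83 and 0.55, with 0.478 and 0.649.

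These SNAI2 calls turned on the model. With offsets for GC content in DESeq2, SNAI2 passed in 5 of the 6 comparisons with syn-gRNA, with log2 differences of 1.29 to 1.60 and adjusted p-values of 0.00774 to 0.0423. The same offsets raised the calls over all genes. For agoshRNA against syn-gRNA, 1671 of 20171 genes passed in KD and 1505 in NTC. For gRNA against syn-gRNA, 1023 passed in KD and 1218 in NTC. For pre-gRNA against syn-gRNA the number with the offsets is not given here. Over the alternative fits described below it ran from 109 to 1602 in KD and from 104 to 1795 in NTC. A call of SNAI2 is to be read beside these numbers. Without pre-gRNA KD B, the difference between pre-gRNA and syn-gRNA in the KD arm was 1.62, with an adjusted p of 0.0256 in DESeq2. When DESeq2 was fitted to the 6 libraries of gRNA NTC and syn-gRNA NTC alone, SNAI2 had 1.36 with an adjusted p of 0.000743. In that fit CDH1 had 0.94 with an adjusted p of 0.0148. The share of all genes called is not given here for either of these fits. For gRNA against syn-gRNA in NTC it ran from 0 to 1218 genes over the alternative fits. These calls are therefore not read as results about SNAI2 or CDH1.

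TWIST1 lay the other way. It was at 17.7, 21.2 and 17.9 CPM in syn-gRNA KD A, B and C and at 17.6, 18.4 and 19.5 in NTC. In gRNA it was at 14.5, 16.8 and 13.7 CPM in KD and 15.5, 18.3 and 12.4 in NTC, and in pre-gRNA at 16.5, 15.7 and 11.2 in KD and 14.8, 14.7 and 15.2 in NTC. All 6 pre-gRNA libraries and 5 of the 6 gRNA libraries lay below the lowest syn-gRNA library, while agoshRNA overlapped it at 14.3 to 20.8 CPM. The log2 difference from syn-gRNA was -0.45 (95% interval -0.93 to 0.03) for pre-gRNA in the KD arm and -0.34 in the NTC arm, with adjusted p-values of 0.384 and 0.470 in DESeq2. With offsets for GC content it was -0.79 and -0.76, with adjusted p-values of 0.0137 and 0.0165 in DESeq2. The share of all genes called with the offsets is not given here for pre-gRNA. Over the alternative fits described below, 109 to 1602 genes passed in KD and 104 to 1795 in NTC. These calls are therefore not read as a result about TWIST1.

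For the other members no unadjusted p was under 0.05 against syn-gRNA. COL1A1, KRT8 and KRT18 had log2 differences of 0.66, 0.65 and 0.62 for agoshRNA in the KD arm (SE 0.418, 0.425 and 0.438), larger there than the 0.55 of SNAI2. COL1A1 was above the highest syn-gRNA library in 11 of the 18 other libraries and below the lowest in 2, and KRT8 in 11 and 4. For VIM, 6 comparisons gave log2 differences between -0.04 and 0.29, and for FN1 the syn-gRNA range of 57 to 78.9 CPM lay inside that of the others. The ZEB1 differences were 0.04 to 0.50 with intervals over 3 log2 units wide. For KRT18 12 of 18 other libraries lay above the highest syn-gRNA library and 0 below the lowest.

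**Figure D2:**
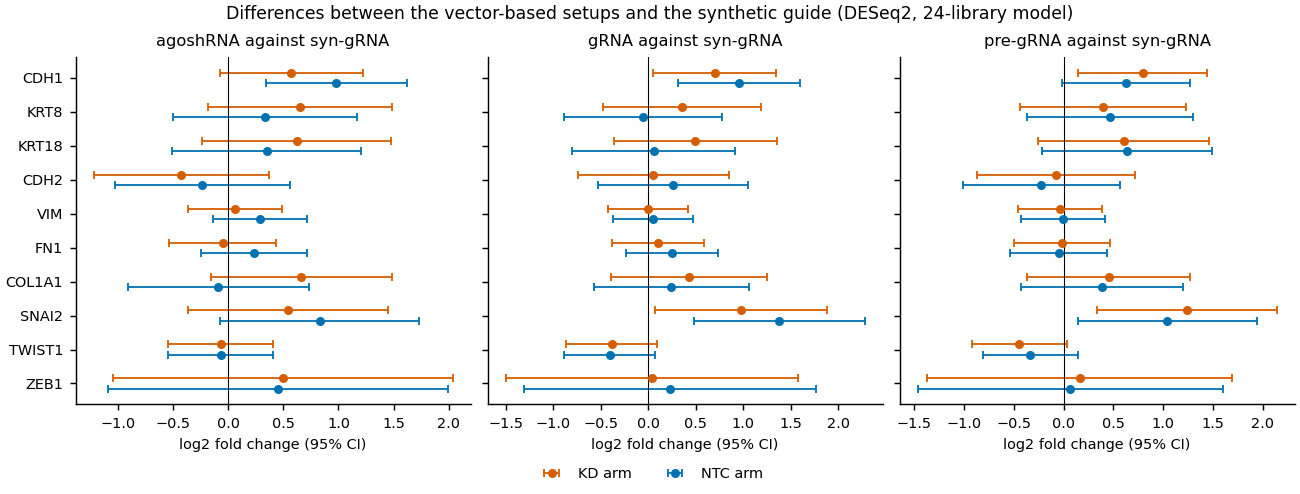
Log2 fold change of agoshRNA, gRNA and pre-gRNA over syn-gRNA for each gene, in the KD arm (orange) and the NTC arm (blue), as points with 95% intervals from the 24-library DESeq2 model before adjustment over genes. SNAI2 and CDH1 lie to the right of 0 in all 6 comparisons and TWIST1 to the left.

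The wider machinery of both states was read from lists of 8 kinds. Of 33 genes of epithelial adhesion, 21 reached a mean of 1 CPM; the desmosomal genes PERP (21.8 CPM per kb) and DSG2 (19.4) were highest, and ST14 and PKP3 had at most 2 counts. Of 9 keratins beside KRT8 and KRT18 only KRT10 (8.02 CPM per kb) reached 1 CPM; KRT17 was next with at most 6 counts, KRT20 had at most 1, and KRT5, a basal keratin, had 0 in every library. Of 11 epithelial regulators 5 reached it, led by OVOL2 (7.4 CPM per kb) and KLF5 (6.97), with EHF and TP63 at most at 3 counts. Of 14 mesenchymal regulators 12 did, led by FOXC1 (47.3) and TCF3 (28.6), with MEOX1 and PRRX2 lowest.

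Of 21 matrix genes 11 reached 1 CPM, with COL6A1 (30.7 CPM per kb) and COL6A2 (12.5) highest and COL1A2 and FAP lowest. Of 20 surface and cytoskeletal genes 10 reached it, with MSN (35.4) and ITGB1 (13) highest and THY1 and CDH11 lowest. The catenins that tie cadherins to actin were well expressed, CTNNA1 at 20.5 and CTNNB1 at 20.3 CPM per kb, while the neural forms CTNNA2 and CTNND2 had at most 3 counts. Of 15 genes of the TGF-beta pathway, a known inducer of the transition, 13 reached 1 CPM, led by the ligand TGFB1 (37.4) and the repressor SKI (8.37), with TGFB2 and ENG lowest. Of markers of other cells that a culture could hold, 2 of 6 fibroblast markers reached 1 CPM, PDPN at 29.3 CPM and COL3A1 at 1.51, while DCN and FAP had at most 3 counts. None of 6 keratinocyte markers reached it, and their summed level was at most 0.751 CPM in a library.

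None of the list genes passed the test between KD and NTC in DESeq2, of 83 tested in agoshRNA, 83 in gRNA, 86 in pre-gRNA and 81 in syn-gRNA. The medians of the lists with at least 4 genes tested lay between -0.224 and 0.145 on the log2 scale, beside medians of all genes between 0.000255 and 0.0572. Of 89 list genes in the comparisons between setups 1 passed, TPM2, which encodes a tropomyosin of actin filaments. TPM2 was at 12.2 to 16 CPM (median 13.9) in the 6 pre-gRNA libraries and 23.3 to 34.7 (median 29.6) in the 6 of syn-gRNA, and the ranges did not overlap. Its level in pre-gRNA was lower, with a DESeq2 log2 fold change over syn-gRNA of -1.25 (SE 0.287) and an adjusted p of 0.00221 in the KD arm, and -0.95 (SE 0.285) with an adjusted p of 0.0351 in the NTC arm. This is 1.12% of the list genes in each arm, below the 2.52% and 3.25% of all genes.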

How the data were processed

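Polyadenylated RNA was sequenced as paired 100 nt reads from non-stranded libraries, per the labels' protocols. Per the submitters' processing notes, the authors used Trim Galore, STAR 2.7.3a with hg19, featureCounts and DESeq2; the annotation and counting settings are not given in the sources used here. The 4 deposited tables hold the same raw counts of 24 libraries for 60658 genes. Each also holds the authors' log2 fold change, p-value and adjusted p-value, and a baseMean signal, per the file headers; the deposited log2 values and p-values were used only where named, and the deposited signal was not printed.

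KD and NTC were compared per setup with DESeq2 1.42.0 (Wald test, R 4.3.3) over genes that reached 10 counts in 3 or more libraries. Setups were compared within each arm, and the KD effect between setups, in a model of all 24 libraries. P-values were adjusted by Benjamini-Hochberg over all genes tested. Intervals of 95% come from the standard errors. CPM was computed from total counts, and log2 values had 0.5 CPM added. GC contents are of the longest GENCODE 29 transcript, known for 93.2% of genes. The steps were tested on simulated counts.

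Alternatives were edgeR 4.0.16 (quasi-likelihood, TMM), other filters, GC offsets, only the libraries compared, leaving out each library, and a block by column letter. Same-letter KD and NTC libraries deviated together from their group means (r 0.361 to 0.975 in 12 pairs, against -0.945 to 0.494 in 24 pairs of other letters), so the letters pair the libraries, on the evidence of the data. The 10 genes and all lists were chosen with earlier results of these data known. From each of the 8 lists of epithelial and mesenchymal genes the 2 highest and 2 lowest per length and any called genes were named; cell-type markers were named after their values were seen. Of the genes most similar to FN1, 1 is not reported here. The lowest count of a member was 71. In some groups, such as CDH1 in syn-gRNA KD, the spread between libraries was no larger than counting error.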

Additional observations from a re-analysis of the deposited data

How the results depend on the processing

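No member was called in any of the 4 comparisons of KD with NTC under any alternative, nor in the test of a difference between setups. With the replicate block by column letter no member's call changed. COL1A1 in agoshRNA had a log2 fold change of 0.65 (SE 0.221, unadjusted p 0.00329, adjusted p 1 in DESeq2). CDH2 in pre-gRNA had 0.236 (SE 0.119, unadjusted p 0.048, adjusted p 0.831 in DESeq2). Between setups, GC offsets raised the number of members called from 0 to 1 for agoshRNA against syn-gRNA in NTC, to 1 for gRNA against syn-gRNA in KD and 1 in NTC, and to 2 for pre-gRNA against syn-gRNA in KD and 2 in NTC. A fit of only the 6 libraries compared gave 2 for gRNA against syn-gRNA in NTC. Leaving out 1 library gave 0 to 1 for pre-gRNA against syn-gRNA in KD, where pre-gRNA KD B decided the call. The cause of these changes was not tested. No member was called in the fits as reported, so there was no called value whose sign could change. Of the alternative values, 85 of 600 for KD against NTC and 138 of 1440 between setups had the other sign. With the GC trend removed, a choice made after the data were seen, the balance in syn-gRNA NTC moved from -0.923 to -0.758. Calls over all genes moved more. GC offsets gave the upper ends below for agoshRNA in NTC and for gRNA in both arms, so the members called rose with this background. Under the alternatives the calls over all genes ran for agoshRNA against syn-gRNA from 107 to 2183 in KD (634 as reported) and from 16 to 1505 in NTC (371), for gRNA from 37 to 1023 (318) and from 0 to 1218 (266), and for pre-gRNA from 109 to 1602 (508) and from 104 to 1795 (656). Between agoshRNA and gRNA they ran from 2 to 19 in KD (9) and 3 to 18 in NTC (10), and between agoshRNA and pre-gRNA from 2 to 24 (9) and 2 to 25 (7). For KD against NTC they reached 3 in gRNA and 9 in syn-gRNA, both with the letter block in edgeR.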
